A study of Mus musculus with 2 samples.

Results

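Mouse lung cells sorted as double positive for EpCAM and an SPC/GFP reporter were profiled by microarray, and 10 genes of the AP-1 transcription factors and of early growth response factor 1 are described here. They were chosen by gene symbol in the platform annotation: Fos, Fosb, Fosl1, Fosl2, Jun, Junb, Jund, Atf3, Batf and Egr1. All 10 were found, each with its own probe identifier, among 19505 genes in all. The air group is 1 array of cells from control mice kept in air for 3 months, and the smoke group is 1 array from mice exposed to smoke for the same 3 months. SPC, surfactant protein C, is made by alveolar type 2 cells, the surfactant-secreting cells of the lung, and EpCAM is an epithelial surface protein, so both groups share the reporter and the sort. The promoter construct of the reporter, the strain, the age and sex of the mice, the number of mice behind each array, any pooling and the hour of collection are not stated in the labels. Values are the deposited log2 signals, and with 1 array per group each difference compares these 2 samples and has no replicate check, no SD and no p-value.

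AP-1 is a family of dimers in which a FOS, JUN or ATF-type protein pairs with another through a leucine zipper and binds DNA through the adjacent basic region. JUN proteins can pair with each other, whereas FOS proteins need a partner such as a JUN protein. Most of these genes, and Egr1, which encodes a zinc finger factor, are immediate early genes: their transcripts appear within minutes of growth factors, stress or tissue handling, through MAP kinases acting on serum response factor and CREB-type factors, and they decay fast. In lung epithelium the family is known for its part in injury, inflammation and matrix remodelling.

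The promoters are shown first because transcription of immediate early genes is controlled there, and because Fosb and Junb were the members past 2-fold, in opposite directions; Fos, the founding member of the family, is set beside them. Each sequence is the 250 bases before the RefSeq transcription start, 5′ to 3′ on the gene's strand, in build GRCm38.p6, which is the build of the sequence table and not one that the array values state. Capitals mark the half-site of the cAMP response element, TGACG, and the EGR site, GCGNGGGCG, wherever either strand matched. The Fosb window is chr7:19310046-19310295 on the minus strand, the Junb window is chr8:84978749-84978998 on the minus strand and the Fos window is chr12:85473640-85473889 on the plus strand.
Fosb: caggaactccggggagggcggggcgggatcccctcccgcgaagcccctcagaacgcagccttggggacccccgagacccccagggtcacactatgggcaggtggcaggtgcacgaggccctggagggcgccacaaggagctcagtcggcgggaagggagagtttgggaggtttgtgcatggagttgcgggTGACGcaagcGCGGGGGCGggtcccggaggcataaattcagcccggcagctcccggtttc
Junb: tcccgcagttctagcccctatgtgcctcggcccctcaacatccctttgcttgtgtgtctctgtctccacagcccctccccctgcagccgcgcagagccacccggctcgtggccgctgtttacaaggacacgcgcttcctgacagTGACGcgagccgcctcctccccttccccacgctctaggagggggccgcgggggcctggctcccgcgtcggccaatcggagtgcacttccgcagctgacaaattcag
Fos: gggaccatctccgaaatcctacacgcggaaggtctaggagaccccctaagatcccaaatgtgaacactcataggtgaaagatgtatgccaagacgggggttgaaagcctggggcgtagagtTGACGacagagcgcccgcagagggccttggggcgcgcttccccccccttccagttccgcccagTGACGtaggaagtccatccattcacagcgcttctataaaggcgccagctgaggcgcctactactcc

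Upstream windows were given for 8 of the 10 genes, and not for Fosl1 or Egr1. The half-site TGACG, to which CREB and ATF proteins bind, was found in 5 of the 8, those of Fos, Fosb, Junb, Atf3 and Batf. Over all windows given, 17.8% of 32851 held it. This motif was added after the windows were read, so its count is no independent evidence. These windows were not limited to the 19505 measured genes, and they were not matched to the 8 for G and C content. Fos held the half-site at 2 places, 129 to 125 and 66 to 62 bases before its start, Fosb at 60 to 56 and Junb at 106 to 102. The EGR site was found in 2 of the 8, Fosb at 50 to 42 bases before its start and Fosl2 at 79 to 71, against 4.7% of all windows. In both it overlapped a match to the GC box GGGCGG, which 6 of the 8 windows and 32.7% of all windows held. The TATA box TATAAA was matched in the Fos window alone among the 8, at 33 to 28 bases before the start, against 12.4% of all windows. The full cAMP response element TGACGTCA, the AP-1 site TGANTCA and the CArG box, the binding site of serum response factor, had 0 matches in the 8 windows, against 1.55%, 6.75% and 1.47% of all windows; sites farther upstream lie outside them. G and C made up 68.8% of the Fosb window, 66.4% of the Junb window and 58.4% of the Fos window. No value over all windows is given beside these.

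**Figure D1:**
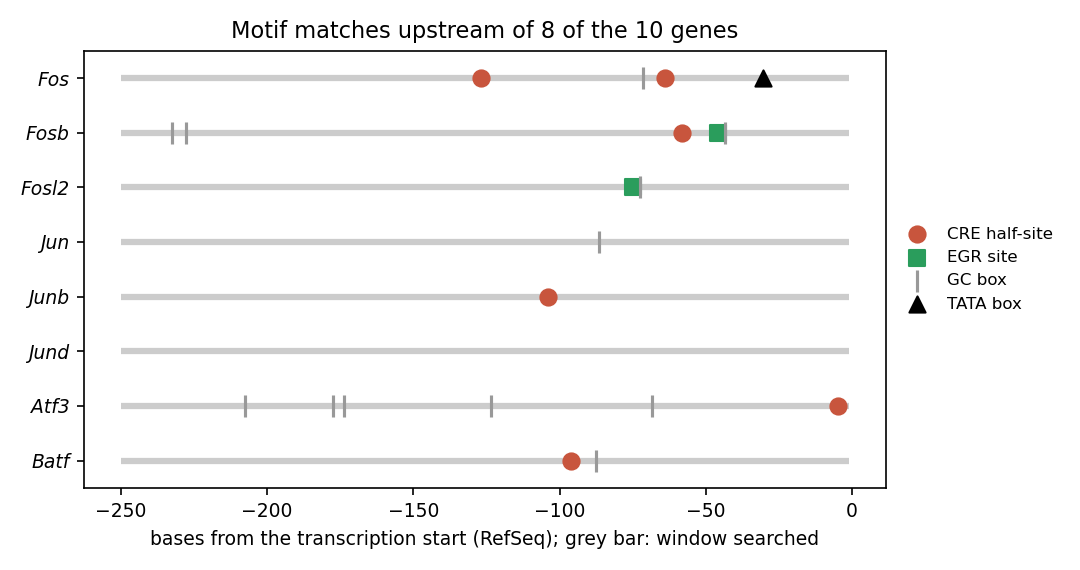
Matches to 4 motifs in the 250 bases before the RefSeq start of 8 genes; the horizontal axis is the distance in bases from the start, and each symbol is the centre of 1 match on either strand. The half-site TGACG stands in the windows of Fos, Fosb, Junb, Atf3 and Batf, the EGR site in those of Fosb and Fosl2, and Jund has no match to any of the 4.

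Across the 10 genes, Fosb was lower and Junb higher in the smoke array, and the other 8 differed by less than 2-fold. All 10 were above the level filter, meaning that the higher of the 2 signals reached 4.57 or more, the median of all deposited values. Past 2-fold, 1 of 10 was higher and 1 of 10 lower, against 3.94% and 2.48% of the 10419 genes above the filter; a single gene in each direction is too few to set the family apart from that background. At 1.5-fold the count was 2 higher and 2 lower, against 14.5% and 9.19%. The median log2 difference of the 10 was -0.04 and their mean -0.05, with 5 members above 0 and 5 below, beside a median of 0.06 over all genes above the filter. Their median absolute difference was 0.48, against 0.33 over those genes. The median of the family thus lay close to that of other genes, while its members ranged over 2.25 log2 units, from -1.17 to 1.08.

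**Figure D2:**
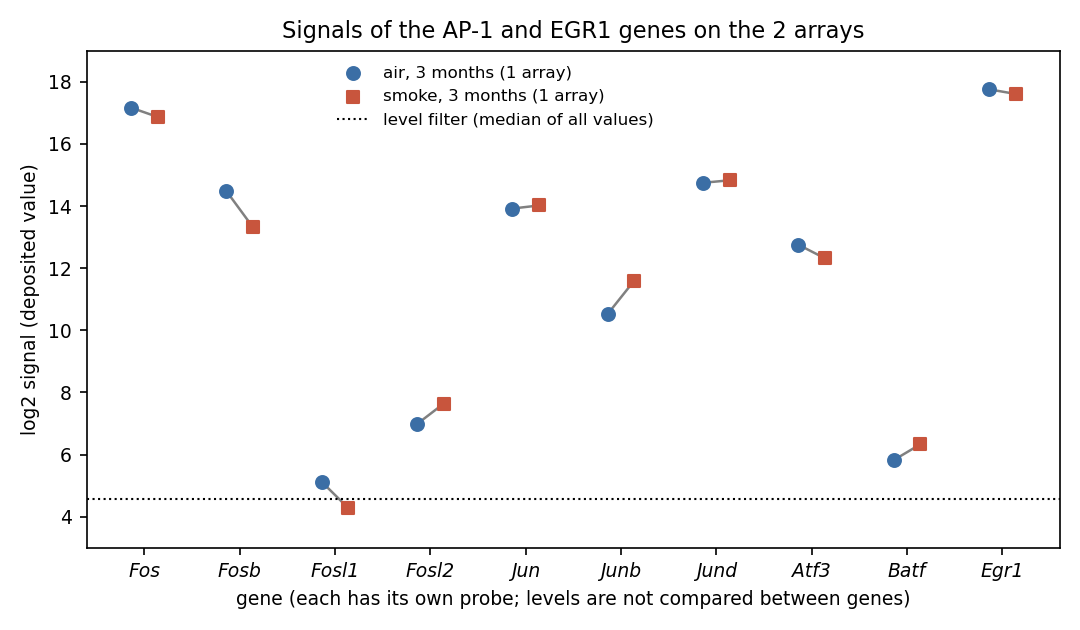
Deposited log2 signal (vertical axis) of each of the 10 genes on the air array (circles) and the smoke array (squares), 1 array each, with the level filter of 4.57 as a dotted line. Fosb drops from 14.49 to 13.32, Junb climbs from 10.52 to 11.60, and Fosl1 is the 1 gene that crosses the filter, from 5.13 to 4.28.

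Of the 4 FOS genes, 3 had lower signals in smoke, and the median log2 difference of the 4 was -0.58. Fosb, whose protein is a FOS-type activator also known for a long-lived splice form, read 14.49 in the air sample and 13.32 in the smoke sample, 2.25-fold lower. To judge such a value, each gene was set against the 200 genes nearest to it in mean level, leaving out the 10. The Fosb difference of -1.17 lay below those of all 200, which reached -1.07 at the lowest, and -3.20 robust SDs (a scaled median absolute deviation, 0.38 here) from their median of 0.04. Of those 200 genes, 2 were lower and 5 higher past 2-fold.

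Fos, a gene rapidly induced by many stimuli, read 17.17 in the air sample and 16.87 in the smoke sample, a log2 difference of -0.30. It lay within 1 robust SD of the median of its 200, with 30 of them lower. Fosl1, which encodes FRA-1, a later-induced FOS protein, read 5.13 in the air sample and 4.28 in the smoke sample, a difference of -0.85 at the 6.5th percentile. The smoke value is under the level filter, and with 16 added to both signals on the linear scale the difference was -0.53. Fosl2, which encodes FRA-2, was the FOS gene with the higher smoke signal, reading 6.98 in the air sample and 7.64 in the smoke sample, a difference of 0.66 at the 82.8th percentile. Genes of that level were themselves shifted upward, with a median of 0.19, and 18 of the 200 were at least 2-fold higher.

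All 3 JUN genes had smoke signals above their air signals, but only Junb by more than 0.10. Junb, a JUN protein that activates transcription less strongly than c-JUN and can oppose it, read 10.52 in the air sample and 11.60 in the smoke sample, 2.11-fold higher. Its difference of 1.08 stood above 196 of the 200 genes of like level and 2.37 robust SDs above their median of 0.13; 5 of the 200 were at least 2-fold higher. The call rests on a small margin, since the Junb difference was 0.97 after quantile normalization of the 2 arrays and 0.95 after subtracting the median of genes of like level, both under 2-fold. Jun, which encodes c-JUN, the main target of the JNK kinases in this family, was at 13.92 and 14.02, a difference of 0.10. Jund, expressed in many resting cells, was at 14.75 and 14.83, a difference of 0.08, which was -0.02 after quantile normalization. Jun and Jund thus sat near the middle of genes of like level, at percentiles of 56.8 and 54.2.

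**Figure D3:**
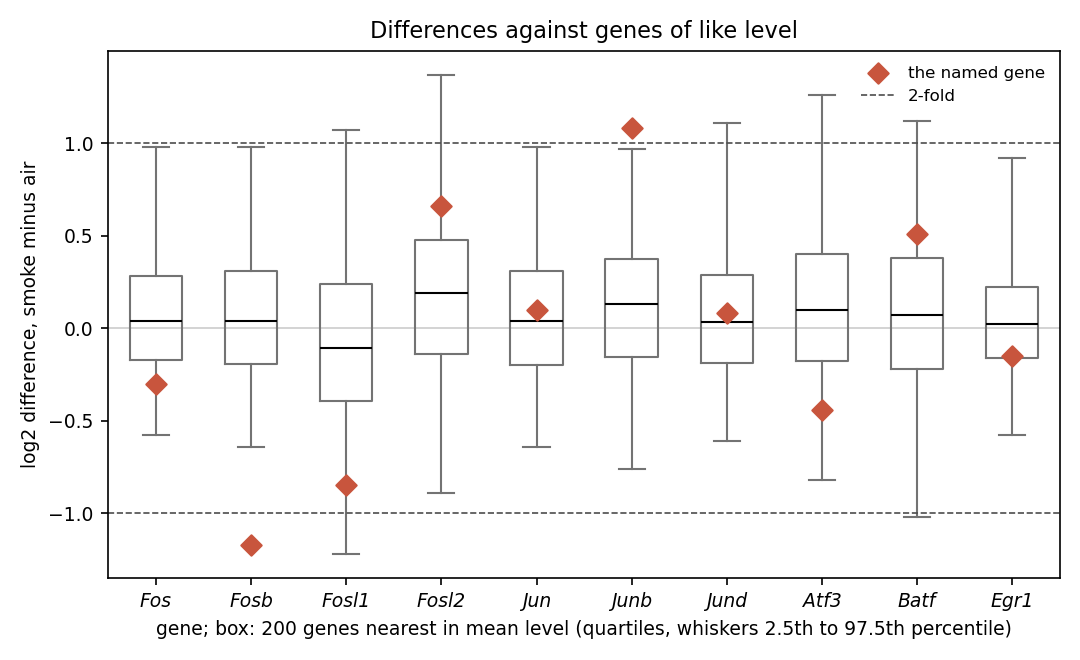
Log2 difference, smoke minus air (vertical axis), of each gene (diamonds) beside the 200 genes nearest in mean level (box, quartiles and median; whiskers, central 95%), with 2-fold as dashed lines. Fosb lies below its lower whisker and Junb above its upper one, and the other 8 lie inside theirs.

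The remaining members stayed within 2-fold. Atf3, a stress-induced partner of JUN proteins that often acts as a repressor, read 12.76 in the air sample and 12.32 in the smoke sample, a difference of -0.44 at the 6.75th percentile. Batf, a small family member without a domain for activating transcription and best known from lymphocytes and dendritic cells, was at 5.82 and 6.33, a difference of 0.51 at the 81.2nd percentile. Egr1, which is induced beside Fos by the same kinases, read 17.76 in the air sample and 17.61 in the smoke sample, a difference of -0.15, with 51 of its 200 lower. Few genes were as bright as Fos and Egr1, so their 200 comparison genes reached from 15.30 to 18.69 and from 15.38 to 19.91 in mean level. The deposited scale ended at 19.93, and none of the 10 was at that limit. In all, 8 of the 10 lay inside the central 95% of genes of like level, or 9 with 100 comparison genes in place of 200, where Junb stood at the 96th percentile, and 5 lay within 1 robust SD of their median.

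The genes whose pair of signals was most like that of a member past 2-fold were found by the Euclidean distance over the 2 arrays, which uses level and difference alone. For Fosb they were Dapk1 (14.25 in air and 13.23 in smoke), Arf6 and Sos2, at distances of 0.26, 0.27 and 0.37. For Junb they were Prkab1 (10.49 and 11.67), Atp5pb and Clstn1, at distances of 0.08, 0.09 and 0.10. Chromosomal neighbours were also read, in RefSeq order. Prdx2 and Hook2, beside Junb, differed by 0.36 and 0.02, and Rtn2 and Ercc1, beside Fosb, by 0.10 and 0.39, so in neither case was a neighbour past 2-fold. Jdp2, which encodes a repressing partner of JUN proteins, lies between Fos and Batf and read 5.96 in the air sample and 6.34 in the smoke sample. The 3 genes of this stretch had differences of -0.30, 0.38 and 0.51.

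The identity of the sorted cells was read from fixed markers. Of 9 alveolar type 2 markers, 5 reached the upper limit in both samples, Sftpc among them, and the other 4 differed by 0.00 to 0.15. Epcam read 11.09 in the air sample and 10.92 in the smoke sample. Endothelial markers were lower in smoke for 7 of 7 measured genes, with a median of -0.80 and a summed signal of 15.23 in air and 14.55 in smoke on the log2 scale. All 7 were above the filter, Cldn5 at -1.17 among them. Neutrophil markers were higher for 4 of 5, with a median of 0.60 and a summed log2 signal of 9.04 and 9.52. Lymphocyte and dendritic cell markers, of types known for Batf, had medians of 0.12 and -0.34, with 4 of 8 and 1 of 7 above the filter. The epithelial markers Epcam, Cdh1, Krt8 and Krt18 were all 4 lower, with a median of -0.14 and a value of -1.11 for the keratin gene Krt8. Medians were -0.23 for alveolar type 1, -0.20 for macrophage, 0.08 for fibroblast and -1.03 for club and ciliated markers, the last over 4 genes of which 3 were lower. The club cell marker Scgb1a1 was at the upper limit in both samples and so was left out of that median. Scgb3a2 was the higher one, at 0.60. Of 6 fibroblast and smooth muscle markers, 3 were above 0 and 3 below, 2 of them at least 2-fold lower. AP-1 genes are active in most cell types, and the part of other cells in the Fosb and Junb differences was not tested. In a sorted but mixed sample, fewer cells of a type and less RNA per cell cannot be told apart.

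Related genes of the pathway were read from 7 lists, of which 177 genes were listed, 163 were measured and 132 stood above the level filter. Of the 132, 7 (5.3%) were higher and 1 (0.758%) lower past 2-fold, beside 3.94% and 2.48% of all genes above the filter, and their median was 0.06, the same as over all genes above the filter. Among 20 dimer partners and relatives above the filter, 1 was higher past 2-fold, 0 lower and 19 within, with a median of 0.05. This was Cebpd, a basic leucine zipper factor of the acute phase response, reading 9.21 in the air sample and 10.23 in the smoke sample. Its difference of 1.02 lay just past 2-fold, and the call was lost after quantile normalization and after centring by level. Batf3, a relative of Batf, was under the filter on both arrays, at 3.10 and 3.34.

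The other EGR genes and the NAB corepressors, which bind EGR proteins and limit them, showed 0 of 4 past 2-fold. Egr2 read 9.06 in the air sample and 8.79 in the smoke sample, and Egr3 had signals of 4.31 and 4.60, close to the filter. Nab1 had the largest difference of the list, 0.30, and Nab2, itself induced by EGR1, had -0.11. None of the 3 EGR genes above the filter, Egr1 included, differed by more than 0.29.

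Among 33 upstream kinases and factors above the filter, 1 (3.03%) was higher past 2-fold and 32 were within 2-fold. Their median was 0.17, with 22 members above 0. Over all genes above the filter, 3.94% were higher and 2.48% lower past 2-fold, with a median of 0.06. Mapk12, the p38 gamma kinase, read 4.45 in the air sample and 5.71 in the smoke sample, a difference of 1.26 from below the filter that was 0.85 with 16 added on the linear scale. Mapk8, the JNK1 kinase that phosphorylates c-JUN, was at 5.12 and 5.31. Srf and Elk1, the serum response factor and its ternary complex partner, differed by -0.04 and -0.26. These are transcript levels and carry no measure of kinase activity.

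Of 15 feedback regulators of the kinases above the filter, 11 were below 0 and 4 above it, with a median of -0.13. Over all genes above the filter the median was 0.06, with 3.94% higher and 2.48% lower past 2-fold. The share of all genes on each side of 0 is not given here, and no test sets the list against them. Dusp10, a phosphatase of p38 and JNK, was past 2-fold, reading 7.04 in the air sample and 5.84 in the smoke sample, 2.30-fold lower. The other 14 were within 2-fold. At 1.5-fold, 5 of the 15 were lower and 0 higher, beside 9.19% and 14.5% of all genes above the filter. Dusp1, an immediate early phosphatase induced beside Fos, was at 18.28 and 18.16, a difference of -0.12, close to that of Egr1.

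The other immediate early genes had a median of 0.01 over 38 members above the filter, with 19 above 0 and 18 below. Of the 38, 1 was at least 2-fold higher and 37 were within 2-fold. This was Per1, reading 9.04 in the air sample and 11.16 in the smoke sample, 4.35-fold higher. Per1 is also a core clock gene, and Dbp, a gene driven by the clock, read 8.05 in the air sample and 16.48 in the smoke sample; the part of the clock in the Per1 value was not tested. Ier2, among the genes most quickly induced with Fos, was at 10.86 and 10.88. Nr4a1, an orphan nuclear receptor of the same class, was at 11.88 and 12.52, a difference of 0.64, and Myc was at 8.24 and 8.80. At 1.5-fold, 5 of the 38 were higher and 1 lower, beside 14.5% and 9.19% of all genes above the filter. Per1 and Nr4a1 were among the 5. The others, named after their values were seen, were Errfi1 (0.94), a feedback inhibitor of the EGF receptor, Nr4a3 (0.92), a relative of Nr4a1, and Csrnp1 (0.68) on the higher side and the kinase gene Sgk1 (-0.85) on the lower side. Of the 38, 19 differed by 0.30 or less.

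Of 17 known targets of AP-1 above the filter, 4 were higher past 2-fold, 0 lower and 13 within, with a median of 0.40. Over all genes above the filter the shares were 3.94% higher and 2.48% lower and the median was 0.06; no test sets the list against them. Csf2, the growth factor GM-CSF, read 4.42 in the air sample and 6.71 in the smoke sample, a difference of 2.29 from below the filter. Cxcl2, a chemokine that attracts neutrophils, was at 6.51 and 8.48, 3.92-fold higher. Tgfb1, the profibrotic cytokine, was at 11.85 and 13.11, 2.40-fold higher. Il6, a cytokine of the acute phase, was at 5.60 and 6.65, a difference of 1.05 that was 0.85 with 16 added on the linear scale. With the level filter at the 75th percentile, 2 of the 4 remained. Mmp12, the macrophage elastase linked to smoke-induced emphysema, was at 7.67 and 7.45. Csf2, Cxcl2 and Il6 are also known as targets of NF-kB. Of the neutrophil markers given above, 4 of 5 were higher in the same array, with 0 past 2-fold. Ptprc, a marker of leukocytes in general, read 7.64 in the air sample and 7.59 in the smoke sample. The part of neutrophils in the values of these targets was not tested. The list was chosen with earlier results of these arrays known and is no independent evidence of its direction.

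Of 12 known targets of EGR1 above the filter, 1 was higher past 2-fold and 11 were within 2-fold, with a median of -0.14, 4 members above 0 and 8 below. This was Tgfb1, which is on both target lists, as are Fn1 and Vegfa. Targets of the 2 factors thus had medians on either side of 0, and the difference between the lists was not tested. Over all genes above the filter the median was 0.06, with 3.94% higher and 2.48% lower past 2-fold.

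**Figure D4:**
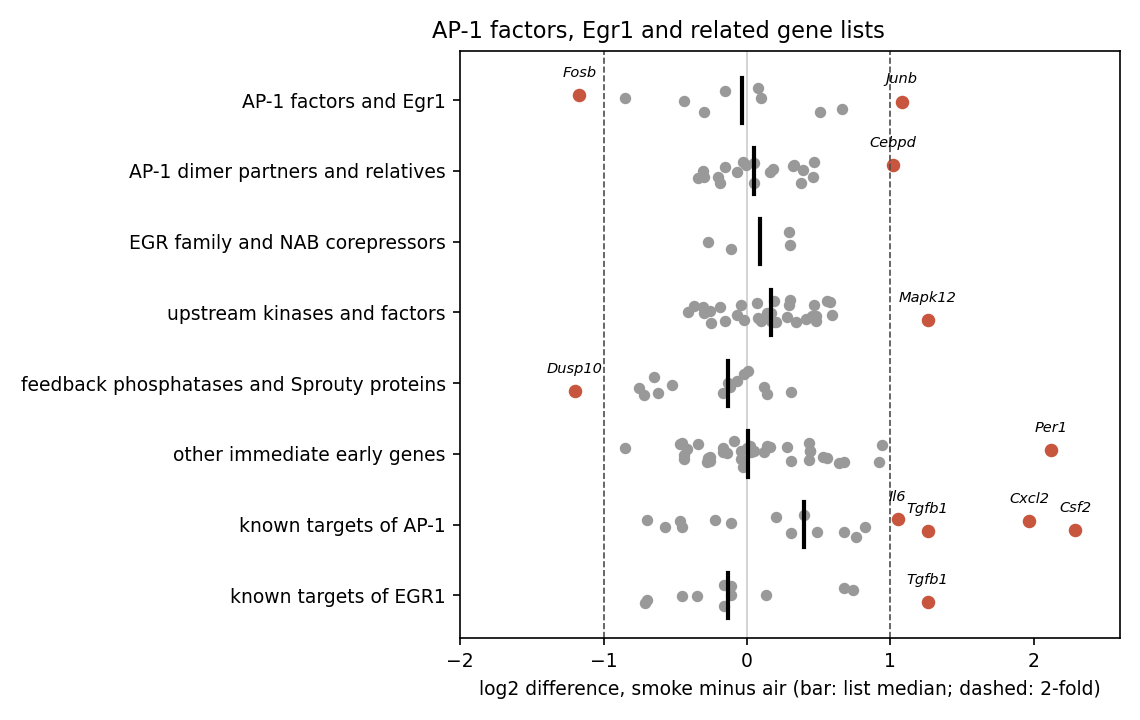
Log2 difference, smoke minus air (horizontal axis), of the genes above the level filter in each list (points; vertical scatter has no meaning), with list medians as black bars, 2-fold as dashed lines and genes past 2-fold coloured and named. The 10 members spread from -1.17 to 1.08 around a median of -0.04, and 4 AP-1 targets lie past 2-fold on the higher side.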

How the data were processed

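RNA of sorted lung cells was hybridised to Affymetrix Clariom S Mouse arrays, 1 for air and 1 for smoke. The authors deposited 1 value per probe identifier and array, treated as a log2 signal because all values lay between 1.55 and 19.93. Per the submitters' processing notes, Transcriptome Analysis Console was used; its settings, the background correction, the normalization and the build are not given in the labels or notes used, and array medians were 4.61 and 4.53. The number of arrays limits the precision.

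Of 22206 probes, 19572 had 1 gene symbol, 0 several and 2634 none; all 19572 matched RefSeq (GRCm38.p6) by Entrez number, used for names and gene order. Probes of a gene were averaged (55 genes). Counts left out 16 genes that both arrays gave at the upper limit. A gene was called at 2-fold (log2 difference of 1) with its brighter array at or above 4.57. It was set against 200 genes of like mean level (Python 3.11.15, numpy 2.4.6, pandas 2.3.3). How often calls close to 2-fold are wrong was not tested. Members and lists were chosen with earlier results of these data known; the TGACG half-site was added after the windows were read. Genes named are the 10 members, up to 4 per list and direction past 2-fold (otherwise the 2 with the largest differences) and 16 fixed by name; other neighbours and markers were named beside them. Alternatives were other filters, thresholds, scalings, an offset of 16 and other numbers of comparison genes.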

Additional observations from a re-analysis of the deposited data

How the results depend on the processing

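The 40 values of single members came from quantile normalization, centring by level, the offset and 1 probe per gene. Each moved by less than the robust SD of genes of like level. With 1 probe per gene no value could move, since each member has 1 probe. Centring shifts a member by its like-level median, which ran from -0.105 to 0.19. The smallest robust SD was 0.29, so the centred values were also bound to stay within it. The offset changes bright signals little, so Fos stayed at -0.30 and Fosb at -1.17. Dimmer members moved more, Fosl1 from -0.85 to -0.53. Fosb stayed between -1.26 and -1.17, and Junb between 0.95 and 1.08. The count of members at least 2-fold higher went from 1 to 0 under quantile normalization and under centring by level. At thresholds of 1.5-fold and 3-fold it was 2 and 0, and the count at least as far lower was also 2 and 0. At 2-fold, Fosb was still called lower after quantile normalization, at -1.265. Centring by level subtracted the like-level median of Fosb, 0.04, and so moved Fosb farther past 2-fold, to -1.21. The other filters, the offset and 1 probe per gene do not test the Fosb call. Its signals of 14.49 and 13.32 are too bright for a filter or the offset to change it. Over the pathway lists, 7 genes were higher and 1 lower. These became 17 and 9 at 1.5-fold, 3 and 0 at 3-fold, and 4 and 0 with a filter at the 75th percentile. After centring by level, 2 were lower. The added gene was Sgk1, at -0.85 where genes of like level had a median of 0.155. Of 48 recomputed counts of single lists that were above 0 at first, 32 stayed within 1.5 times of that value, and of 64 that were 0 at first, 5 were above 0. Of 20 percentiles recomputed with 100 or 500 comparison genes, 19 stayed inside the counting interval of the first, and that of Jund became 45.5 with 100; Junb went from the 98th percentile to the 96th with 100. No paired analysis was possible because each group has 1 array; for the same reason no array could be left out. Signals near the filter, such as those of Fosl1 and Batf, limit what can be said of those genes.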
